A study of Mus musculus with 2 samples.

Results

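The elastic fibre and microfibril genes are a set of 8 listed genes: Fbn1, Fbln1, Fbln2, Mfap2, Mfap4, Mfap5, Emilin1 and Efemp2. A gene entered when a row of the authors' full table carried its symbol as the only gene symbol. This held for 7 of the 8 genes, out of 19122 genes with 1 symbol in all, and Fbln1 had no such row. Each of the 7 was measured by 1 transcript cluster, a group of probes placed along the exons of a gene.

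The irradiated group was lung of male C57BL/6 mice, an inbred strain, given 1 dose of gamma rays to the chest at 7 weeks of age (0.81 Gy/min), with lungs taken 25 weeks later. These mice were described as overexpressing the protein alpha-smooth muscle actin, and fibrosis was assessed by tissue staining and western blot. The nonirradiated group was lung of male C57BL/6 mice kept as negative controls to the same time. No allele or transgene is named in either group. Neither the total dose nor the number of mice behind an array is given in the sources used here. A single expression array of whole lung, labelled from 300 ng of total RNA, represented each group, which left no replicate error and no test to run. All values are on the log2 scale, as deposited after RMA. Differences are irradiated minus nonirradiated on that scale, and a fold is the antilog of the size of a difference.

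Elastic fibres let lung tissue stretch and recoil. They consist of a core of cross-linked elastin laid on a scaffold of microfibrils, whose backbone is fibrillin. Microfibril-associated glycoproteins, fibulins and emilins sit on the scaffold or at its interface with elastin, and the scaffold also holds latent TGF-beta through latent TGF-beta binding proteins. In lung these genes are expressed mainly by fibroblasts and by smooth muscle cells of vessels and airways.

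RefSeq promoter windows, 250 bases before to 50 after a transcript start, were found for 6 of the 8 listed genes, in 10 windows (GRCm38.p6). They are not listed for Mfap4 and Mfap5. The windows of 2 fibulin genes are shown because these genes differed in opposite directions between the arrays: Fbln2 at chr6:91212514-91212813, plus strand, and Efemp2 at chr19:5473696-5473995, plus strand. Capitals mark the letters GGGCGG, a binding motif of SP1, and CAGAC, a motif of SMAD proteins, on either strand.
Fbln2: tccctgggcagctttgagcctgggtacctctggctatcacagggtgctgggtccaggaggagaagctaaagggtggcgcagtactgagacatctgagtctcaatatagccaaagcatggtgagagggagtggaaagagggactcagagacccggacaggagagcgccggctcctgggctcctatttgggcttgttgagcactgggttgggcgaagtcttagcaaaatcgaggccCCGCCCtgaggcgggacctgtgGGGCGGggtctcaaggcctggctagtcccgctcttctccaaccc
Efemp2: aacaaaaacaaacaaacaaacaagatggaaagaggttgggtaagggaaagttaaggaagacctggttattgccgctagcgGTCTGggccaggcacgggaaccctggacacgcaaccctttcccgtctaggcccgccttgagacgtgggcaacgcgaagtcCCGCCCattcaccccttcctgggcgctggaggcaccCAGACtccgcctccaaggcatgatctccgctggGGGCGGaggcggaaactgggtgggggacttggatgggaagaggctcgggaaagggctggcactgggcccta
The Fbln2 window held GGGCGG 2 times and CAGAC 0 times, and the Efemp2 window shown held each 2 times. The other Efemp2 windows, which start at 5474440 and 5474485 and overlap each other, held GGGCGG 5 and 7 times and CAGAC 0 times. Over the windows of the listed genes, GGGCGG occurred in 7 of 10 and CAGAC in 5 of 10, against 35.7% and 49.6% of all 32851 RefSeq windows. Some windows of the same gene overlap. Some windows held both motifs, but the 2 motifs shared no bases. The letters TATAAA, the letters TGACTCA (a motif of AP-1) and the CArG box, the motif of serum response factor, were searched on both strands and occurred in 0 of the 10 windows. Their shares of all windows were 13.6%, 5.20% and 1.63%. These matches describe the sequences. The windows shown were chosen by the direction of the expression differences, and no relation between motif and expression was tested.

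The 7 genes differed little between irradiated and nonirradiated lung. In the irradiated array 5 read higher and 2 lower (6 and 1 with a lowess trend on intensity removed), and 0 of 7 reached 1.5-fold, the smaller of the 2 fold limits of the deposited sheets. Over all 19122 genes 3.27% reached that limit, 2.07% higher and 1.2% lower, which is 395 and 230 genes. With each array centred on its median these were 321 higher and 322 lower. The median difference of the 7 genes was 0.05, and that of all genes was -0.02. Their median absolute difference was 0.10, and that of all genes was 0.15. In all, 45.3% of genes read higher in the irradiated array, and 39.4% of the 9276 genes above the array median in both arrays did so. All 7 genes were above that median, which was 7.26 in the irradiated and 7.27 in the nonirradiated array. At a lower limit of 1.2-fold, 1 of the 7 genes, Mfap5, was past it, against 25.7% of all genes. In the authors' deposited table of rows at 1.5-fold, 0 rows belonged to these genes.

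Fbn1 encodes fibrillin-1, the backbone of the microfibril. Cluster 17390879, which measures it, spans 125300594 to 125507993 of chromosome 2 (GRCm38, minus strand) and was summarised from 61 probes, the most of the 7 genes. Fbn1 read 9.59 in the irradiated array, against 9.54 in the nonirradiated array. The difference was 0.05, or 1.04-fold, and 36.8% of all genes had a higher one.

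Mfap2 encodes the microfibril-associated glycoprotein MAGP-1, which binds fibrillin. Its cluster on chromosome 4 (141010418 to 141015984, plus strand) read 10.25 in the irradiated and 10.15 in the nonirradiated array, a difference of 0.10. Mfap5 encodes the related MAGP-2, which binds fibrillin and Notch ligands. Its cluster 17462663 on chromosome 6 (122505845 to 122529290, plus strand, 30 probes) read 9.77 in the irradiated array, against 9.49 in the nonirradiated array. The Mfap5 difference of 0.27, or 1.21-fold, was the largest of the 7 in size, and 11.2% of all genes had a higher one. Mfap4 encodes a fibrinogen-domain glycoprotein that associates with elastic fibres. Its cluster on chromosome 11 (61485431 to 61488900, plus strand) read 10.25 in the irradiated and 10.20 in the nonirradiated array, a difference of 0.05. All 4 microfibril genes read higher in the irradiated array, by 1.04-fold to 1.21-fold. With centred arrays the differences of Fbn1, Mfap2, Mfap4 and Mfap5 were 0.012, 0.060, 0.0080 and 0.23.

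The fibulins and the emilin did not share a direction. Fbln2, the gene of fibulin-2, which links fibrillin, elastin and basement membrane proteins, lies on chromosome 6 (91212455 to 91272540, plus strand). Fbln2 read 7.71 in the irradiated array, against 7.56 in the nonirradiated array, a difference of 0.15. Efemp2 encodes fibulin-4, which is required for elastic fibre formation and brings the cross-linking enzyme lysyl oxidase to elastin. Its cluster 17356447 on chromosome 19 (5473973 to 5482140, plus strand, 34 probes) read 8.46 in the irradiated array, against 8.66 in the nonirradiated array. The Efemp2 difference of -0.19, or 1.14-fold lower, was the lowest of the 7, and 21.3% of all genes had a lower one. Emilin1 encodes a glycoprotein at the interface of elastin and microfibrils, which also restrains TGF-beta processing. Its cluster on chromosome 5 (30913402 to 30921278, plus strand) read 7.93 in the irradiated and 7.94 in the nonirradiated array, a difference of -0.01 that became 0.02 with the intensity trend removed.

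**Figure D1:**
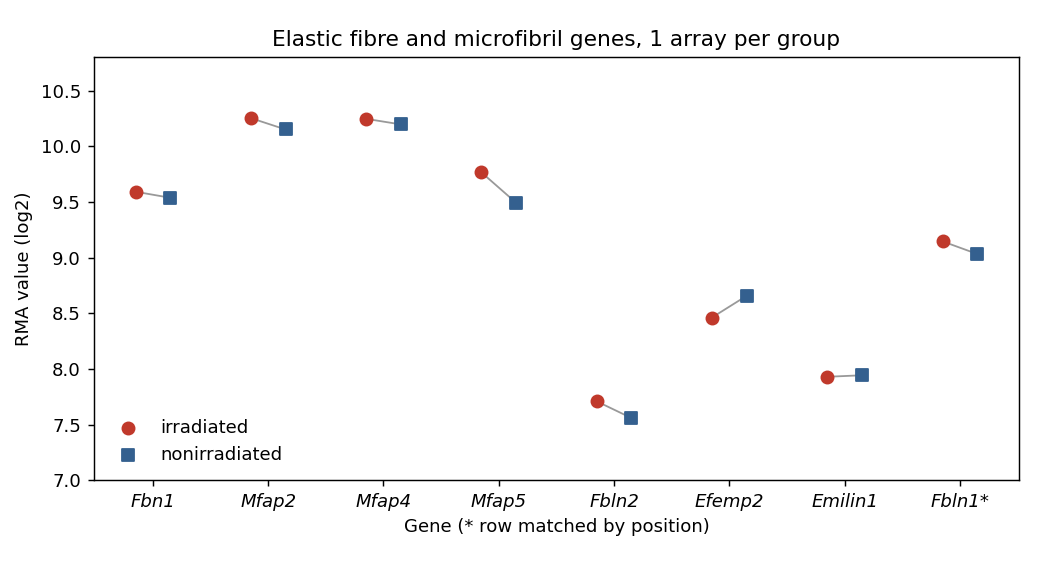
RMA values (log2, vertical axis starting at 7) of the 7 genes and of the row at the position of Fbln1 (asterisk), with the irradiated array as a circle to the left of the nonirradiated array as a square. The values of each gene lie close together, with the widest gap in Mfap5 (9.77 irradiated, 9.49 nonirradiated) and Efemp2 lower in the irradiated array. Levels of different genes come from different probes and are not compared.

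Without replicates, only spread between rows of these 2 arrays was available. The 18 bacterial hybridisation controls had differences with an SD of 0.14, which the differences of Mfap5, Efemp2 and Fbln2 exceeded in size and those of the other 4 genes did not. With centred arrays the difference of Fbln2 was 0.11, below that SD. The SD of other control rows was larger. It was 0.31 in 39 poly-A spikes, above the size of all 7 differences. In 92 ERCC controls it was 0.24 and in 23 antigenomic background probes 0.21, which only the difference of Mfap5 exceeded. These SDs are taken about the mean of each group of rows and leave out a shift of the group. The median difference was 0.04 in bacterial controls, -0.16 in poly-A spikes, -0.07 in ERCC controls and -0.21 in antigenomic probes. Genes with several rows and above the array median in both arrays (898 rows of 379 genes) had a pooled within-gene SD of 0.27, and 6 of the 7 differences were below it. Mfap5 was level with it at 0.27. None of these spreads includes the variation between animals. All 7 clusters were in class 1 of the deposited cross-hybridisation annotation, the class of probes unique to 1 cluster, and held 19 to 61 probes. Intron rows of normalisation genes had a median difference of 0.27 over 5331 rows, and exon rows one of -0.08 over 1352 rows. Their part in the values of the 7 genes was not tested.

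**Figure D2:**
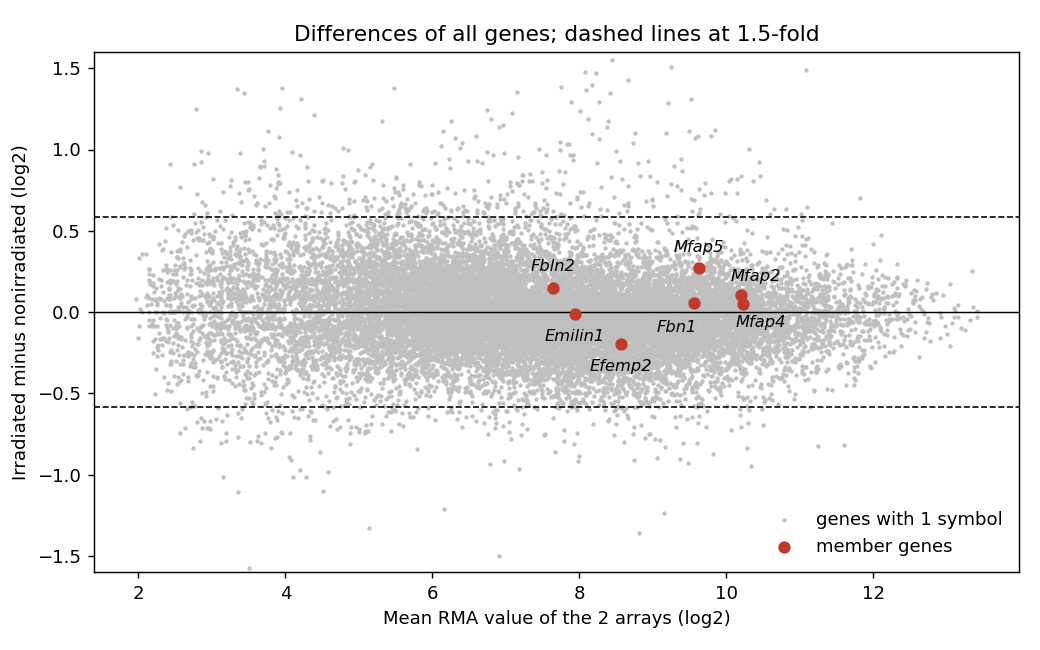
Difference between the irradiated and the nonirradiated array (log2, vertical axis) against the mean RMA value of the 2 arrays (log2, horizontal axis) for genes with 1 symbol (grey) and the 7 elastic fibre and microfibril genes (red), with dashed lines at 1.5-fold. The 7 genes lie between -0.19 and 0.27, inside both lines. The axis stops at 1.6 in both directions, which leaves out 9 genes.

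The deposited annotation showed what else the genes share. All 7 carried the term proteinaceous extracellular matrix. Of the 240 genes with that term, 118 read higher and 121 lower in the irradiated array, with a median difference of -0.01. In each direction 3 of the 240 reached 1.5-fold, against 2.07% of all genes higher and 1.2% lower. The term microfibril was on 6 genes, of which Fbn1, Mfap2 and Mfap5 are in the set. The others were Mfap1a at -0.02, Mfap1b at -0.08 and Thsd4 at -0.27. Fbn1, Fbln2 and Efemp2 carried the term calcium ion binding, as 513 genes did, whose median difference was -0.03.

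Some central elastic fibre genes had no row with their symbol. Rows without a symbol were therefore matched by position to RefSeq genes of GRCm38.p6 when each span covered at least 80% of the other, a step chosen after the data had been seen. On chromosome 11, 943 of 964 rows with 1 symbol that met this rule bore the symbol of the matched gene or a synonym. The row at Fbln1, the gene of the matrix and plasma protein fibulin-1, is cluster 17313811 on chromosome 15 (85205949 to 85286535, plus strand, 35 probes). It read 9.15 in the irradiated array, against 9.03 in the nonirradiated array, a difference of 0.11. With this row, 6 of 8 genes read higher in the irradiated array and the median difference was 0.08.

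The row at Fbln5, the gene of fibulin-5, which tethers elastin to microfibrils and cells, differed most among the structural genes found by position. This row, cluster 17283380 on chromosome 12 (101746565 to 101819055, minus strand, 30 probes), read 10.30 in the irradiated array, against 10.72 in the nonirradiated array. Its difference of -0.42, or 1.34-fold lower, was larger in size than that of any of the 7 genes, and 4.33% of all genes had a lower one. The row at Eln, the gene of tropoelastin, the soluble precursor of elastin, read 8.19 in the irradiated and 8.05 in the nonirradiated array, a difference of 0.14. The strand of the Eln row could not be checked against RefSeq. It lies on chromosome 5 (134702596 to 134747254, minus strand in the deposited table).

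The other genes of the pathway were read from 6 lists holding 90 genes, of which 72 had a row with their symbol. In the irradiated array 40 of the 72 read higher and 32 lower (36 each with centred arrays), with a median difference of 0.04. Of the 72, 1 reached 1.5-fold, against 3.27% of all genes. The other structural genes (13 measured) had 6 higher and 7 lower, with a median of -0.02 that became 0.04 with the intensity trend removed. Mmrn1, multimerin 1, an emilin relative of platelets and endothelium, read 8.61 in the irradiated and 8.16 in the nonirradiated array. Emilin3 read 6.53 in the irradiated and 6.93 in the nonirradiated array, both below the array median. Emilin2 differed by -0.23 and Mfap3l by -0.28. Efemp1, the gene of fibulin-3, differed by -0.07.

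Latent TGF-beta binding proteins and TGF-beta ligands, which the microfibrils store, had 4 of 8 genes higher and a median of 0.0047 that became -0.04 with centred arrays. Ltbp4, which also takes part in elastic fibre assembly, read 11.50 in the irradiated and 11.53 in the nonirradiated array. Ltbp2 differed by 0.11 and Ltbp3 by -0.19. Lrrc32, a cell surface anchor of latent TGF-beta, differed by 0.33, and Tgfb2 by -0.37.

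Cross-linking and assembly genes had 11 of 14 higher in the irradiated array, 0 at 1.5-fold, and a median of 0.11. Lox, the lysyl oxidase that cross-links elastin and collagen, read 9.21 in the irradiated array, against 8.84 in the nonirradiated array, a difference of 0.38. Its relative Loxl3 differed by 0.34, and Loxl1, a binding partner of fibulin-5, by 0.14. Thsd4, which promotes fibrillin assembly, differed by -0.27, and the transglutaminase Tgm2 by -0.24. Lox and Efemp2, whose products act together on elastin, thus differed in opposite directions.

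Elastases and their inhibitors, pooled in the same list, had 6 of 17 genes higher in the irradiated array and a median of -0.11. That median stands for neither kind alone. Mmp12, also listed, had no row with it as the only symbol and no row matched by position. Cela1, a pancreatic-type elastase, read 6.26 in the irradiated and 6.81 in the nonirradiated array, a difference of -0.55 between values below the array median. Elane, neutrophil elastase, and Ctsg, cathepsin G, differed by 0.41 and 0.39, also between values below the median. Ctsk, an elastin-degrading cathepsin, differed by -0.35. Receptor genes had 5 of 11 higher and a median of -0.08. Rpsa, a ribosomal protein also described as an elastin and laminin receptor, differed by -0.56, from 2 rows annotated as cross-hybridising. The integrin chains Itgb3, Itga9 and Itgax differed by -0.21, -0.21 and -0.20. The rows at the positions of Neu1 and Glb1, genes of the elastin receptor complex, differed by -0.38 and -0.24. Ctsa, a gene of the same complex with a row of its symbol, differed by 0.01. With rows named by position 6 of 16 receptor genes read higher and the median was -0.18.

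Proteoglycans and related matrix proteins, some of which bind microfibrils, had 8 of 9 genes higher in the irradiated array and a median of 0.17. With rows named by position 8 of 10 read higher and the median was 0.16. Aspn, asporin, a small leucine-rich protein that binds collagen and TGF-beta, read 9.75 in the irradiated array, against 9.004 in the nonirradiated array. At 1.68-fold it was the 1 gene of the 72 that reached 1.5-fold. Lum, lumican, which also stands in the fibroblast list, differed by 0.30, Cspg4 by 0.21, and Hspg2, perlecan, by -0.25.

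**Figure D3:**
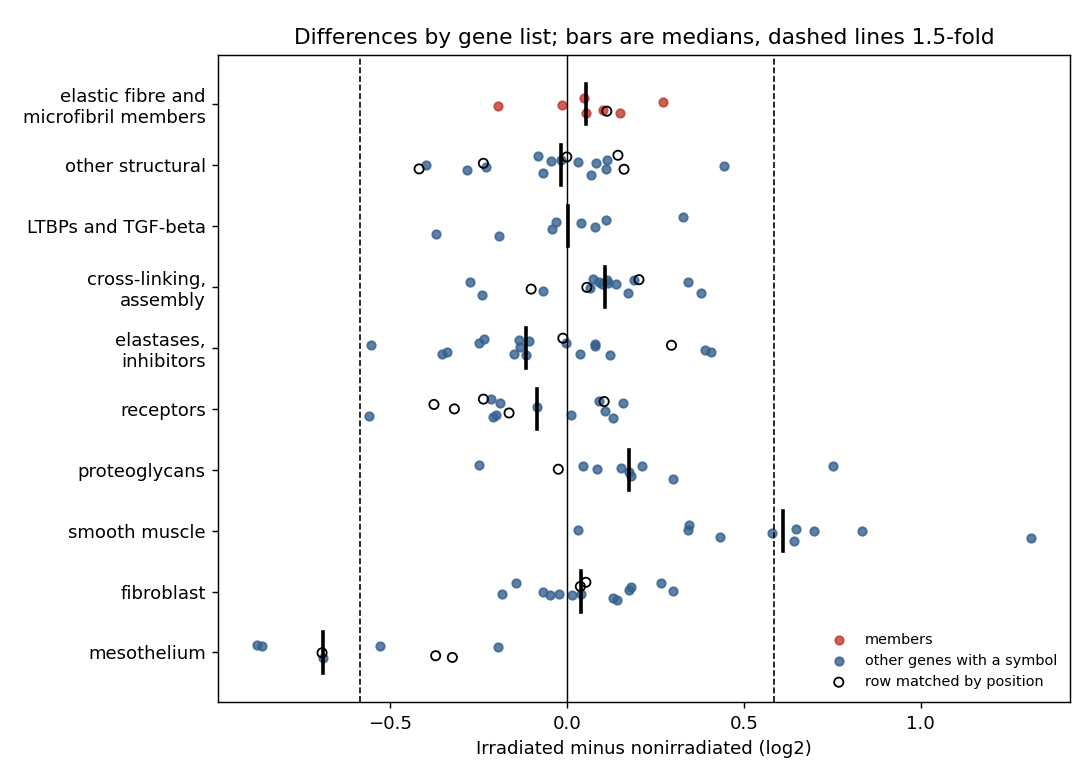
Differences between the irradiated and the nonirradiated array (log2, horizontal axis) for the 7 genes, the 6 other elastic fibre lists and 3 lists of cell type markers, with 1 point per gene, open circles for rows matched by position, black bars at the medians of genes with a symbol and dashed lines at 1.5-fold. The 7 genes span -0.19 to 0.27 with a median of 0.05. Fibroblast genes have a median of 0.04, while smooth muscle genes have a median of 0.61 and mesothelial genes one of -0.69. Vertical scatter within a list has no meaning. Marker lists of other cell types, among them heart muscle and adipocytes, are not shown.

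Markers of the cell types in the sample moved with the arrays in different ways. In whole lung, a difference in the number of cells of a type in the sample and one in RNA per cell cannot be told apart. Sftpc, a surfactant gene that marks lung, read 13.39 in the irradiated and 13.42 in the nonirradiated array. These values lie near the highest of the arrays, 13.78 irradiated and 13.83 nonirradiated. Its difference of -0.03 was the smallest in size of the 11 alveolar epithelial genes, whose median was -0.28 and whose lowest was -0.49. Fibroblast genes had 8 of 13 higher in the irradiated array (6 with centred arrays), 0 at 1.5-fold, and their summed antilog values, which the brightest clusters dominate, were 15279 in the irradiated and 14423 in the nonirradiated array. Smooth muscle genes had 10 of 10 higher (9 with centred arrays) and 5 at 1.5-fold, against 3.27% of all genes. Their sums were 9923 irradiated and 6711 nonirradiated. Acta2, which belongs to that list and encodes the protein by which the irradiated mice were described, differed by 0.65. Mesothelial genes had 0 of 5 higher and 3 lower by at least 1.5-fold, against 1.2% of all genes. Their sums were 3340 irradiated and 4680 nonirradiated. Of 8 heart muscle genes 8 were higher, with 8 at 1.5-fold and a median of 0.82 (10672 irradiated, 5668 nonirradiated). Of 8 adipocyte genes 8 were higher, with 8 at 1.5-fold and a median of 1.27 (6740 irradiated, 2635 nonirradiated). Both medians were above the 0.61 of smooth muscle genes. Over all genes 2.07% reached 1.5-fold higher. Alveolar epithelial genes were higher in 0 of 11 cases (49183 irradiated, 56266 nonirradiated) and airway epithelial genes in 1 of 7, or 0 with centred arrays (28241 irradiated, 30890 nonirradiated). Vascular endothelial genes were higher in 3 of 7 cases (14572 irradiated, 13894 nonirradiated) and cartilage genes in 4 of 8 (2875 irradiated, 3741 nonirradiated). At 1.5-fold 1 airway epithelial gene was past the limit, and 0 of the alveolar epithelial, vascular endothelial and cartilage genes. The cartilage sum rested on Chad, chondroadherin, without which it was 632 irradiated and 621 nonirradiated. The part of these cell types in the values of the elastic fibre and microfibril genes was not tested.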

How the data were processed

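Total RNA of whole lung was hybridised to whole-transcript arrays, 1 irradiated and 1 nonirradiated, per the labels. The authors deposited log2 values and, per the submitters' processing notes, used Affymetrix Expression Console 1.3.1 and RMA. They also deposited a fold, the antilog of the absolute log2 ratio, per the file headers. RMA as usually run subtracts background and forces the arrays onto a common distribution, so that a change common to most genes is hidden. The deposited log2 ratio equalled irradiated minus nonirradiated in every row. Coordinates cite GRCm38.

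Of 41345 rows, 6980 were array controls. The other 34365 held 20339 rows with 1 symbol, which were averaged to 19122 genes in Python 3.11.15 with pandas 2.3.3. With 1 array per group no p-value was computed, and the number of arrays limits the precision. Calls used 1.5-fold. Alternatives were centring of each array on its median, a lowess trend taken out (span 0.3, statsmodels 0.14.6, tested on simulated data), other choices of rows, other fold limits and the value table.

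The members and lists were chosen with earlier results of these data known. Named were all members, the 4 genes of each pathway list with the largest absolute difference, and Eln, Fbln5, Efemp1, Lox, Loxl1, Ltbp4 and Acta2. The ranking within a list covered only genes with a row of their symbol. Neu1, Glb1, Ctsa, Mfap1a, Mfap1b, Chad and Sftpc fall outside this rule and were named after their values had been seen. Mmp12 was named because no row was found for it. Lists of markers were described by counts.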

Additional observations from a re-analysis of the deposited data

How the results depend on the processing

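Most alternatives could not move the 7 genes, since each has 1 row in cross-hybridisation class 1 with at least 19 probes and the value table repeats the workbook. Of 200 recomputed values, 140 were identical to the reported ones and say nothing of stability. With the 2 scalings, centring and lowess, Mfap5 ranged from 0.23 to 0.31, Efemp2 from -0.24 to -0.14, Fbln2 from 0.11 to 0.17, Mfap2 from 0.06 to 0.13, Fbn1 from 0.01 to 0.09 and Mfap4 from 0.01 to 0.08, and the median of the 7 genes from 0.01 to 0.09. The median of all rows was higher by 0.04 in the irradiated array, and centring moves every difference by that amount. Emilin1 changed sign, at 0.02, with the lowess trend removed, and then 6 of 7 genes read higher. At a 1.2-fold limit 1 of the 7 genes, Mfap5, was past it, against 25.7% of all genes. At a 2-fold limit 0 of the 7 genes were past it, against 0.413% of all genes. With centring, the elastase list (Cela1) and the receptor list (Rpsa) each had 1 gene at 1.5-fold in place of 0, as had the receptor list (Rpsa) when the row with the most probes was used. The median of the other structural genes changed sign, at 0.04 with the trend removed and at 0.03 without rows of fewer than 10 probes or with genes above the array median in both arrays only. That of the latent TGF-beta list changed sign, at -0.04, with centring. The median of the receptor list ranged from -0.18 with rows named by position to -0.04. Rows with several symbols added none to the 7 genes. No paired analysis was possible because each group has 1 array, and no array could be left out. The share of intron control rows below a gene differed among the genes: it was 79.3% for Fbln2 and 99.4% for Mfap2 in the irradiated array. In the nonirradiated array these shares were 82.3% and 99.6%. Intron rows do not stand for array background. Their median was 6.58 in the irradiated and 6.33 in the nonirradiated array, against 4.59 and 4.77 for antigenomic background probes.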
